A study of Mus musculus with 30 samples.

Results

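The 10 genes described here are targets and regulators of Wnt signalling and markers of intestinal stem cells: Notum, Wif1, Apcdd1, Nkd1, Axin2, Lgr5, Ascl2, Prox1, Tnfrsf19 and Mmp7. They were picked by name, with earlier results of these data known, out of the 46078 genes of the count table. All 10 were found and passed the filter on low counts, which left 16261 genes for testing. The libraries came from scrapes of the colon epithelial layer of wild-type C57BL/6J mice, 5 to 10 weeks old at the start, with 5 females and 5 males in each of 3 conditions. Mice of the colitis groups received a single injection of the carcinogen azoxymethane (AOM, 10 mg/kg) and then 3 cycles of 2.5% dextran sulfate sodium (DSS), which irritates the gut lining, in the drinking water. They were killed 9 or 15 weeks after the injection. Vehicle mice received saline, no DSS, and were killed at 9 weeks, and they were the baseline for both time points. At 15 weeks, treatment and the time elapsed therefore cannot be told apart, and the comparisons of 9 and of 15 weeks with vehicle share their control libraries.

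In the absence of a Wnt ligand, a cytoplasmic complex built on Axin and Apc marks beta-catenin for degradation. When a ligand binds Frizzled and Lrp receptors, beta-catenin accumulates, joins TCF and LEF factors on DNA and switches on target genes, several of which feed back to dampen the pathway. In the intestine this signal is strongest at the crypt base, where it maintains the stem cells, and its lasting activation through loss of Apc or stabilised beta-catenin is a common early step of colorectal tumours. Among the 10 genes, Notum encodes a secreted enzyme that removes the lipid from Wnt ligands, Wif1 a secreted protein that binds the ligands, Apcdd1 a membrane protein that inhibits the pathway at the cell surface, Nkd1 a cytoplasmic inhibitor that binds Dishevelled, and Axin2 a scaffold of the degradation complex. Lgr5 is a receptor for R-spondins and marks crypt base stem cells, Ascl2 is a transcription factor of these stem cells, and Prox1 is a homeobox transcription factor. Tnfrsf19 is a receptor of the tumour necrosis factor receptor family, and Mmp7 is a metalloproteinase known for activating alpha-defensins in Paneth cells of the small intestine.

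In the GRCm38 gene intervals deposited with the per-library expression values, the inhibitors Notum (chr11:120653788-120661175), Axin2 (chr11:108920349-108950783), Wif1 (chr10:121033960-121100650) and Nkd1 (chr8:88521344-88594887) lie on 3 chromosomes. Of these, Notum is on the minus strand and the others are on the plus strand. The stem cell genes Lgr5 (chr10:115450311-115587780), Ascl2 (chr7:142966822-142969264) and Prox1 (chr1:190118035-190170714) are on the minus strand, as is Tnfrsf19 (chr14:60963834-61046855), whereas Mmp7 (chr9:7692090-7699585) is on the plus strand. The exons of each gene together span from 1068 bases in Mmp7 to 12884 in Apcdd1, so levels not scaled to length do not rank the genes.

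RefSeq promoter windows (GRCm38.p6, from 250 bases before to 50 after the annotated start) were at hand for 7 of the 10 genes, namely Nkd1, Axin2, Wif1, Prox1, Ascl2, Tnfrsf19 and Mmp7. Each window was searched on both strands for 4 motifs of 7 letters that TCF and LEF factors are known to prefer, namely CTTTGAA or CTTTGAT and likewise CTTTGTA or CTTTGTT. At least 1 of them occurred in 16.9% of all 32851 windows of this length and in the windows of 2 of the 7 genes. Both matches read ATCAAAG, which is CTTTGAT on the other strand, and stand in capitals here because they are the only matches among these genes. The Tnfrsf19 match lies outside exons before the second of its annotated starts, at chr14:61038171-61038200 on the minus strand, and the Mmp7 match lies in an exon at chr9:7692083-7692112 on the plus strand.
Tnfrsf19: ctgaatgggggATCAAAGtgacaaactaga
Mmp7: tgtcaggaaacATCAAAGtagctctgagaa
The stretches before the starts of Nkd1 (chr8:88527383-88527632, plus strand, a start that RefSeq places inside the deposited gene interval) and Wif1 (chr10:121033754-121033959, plus strand) are shown because these genes moved together between mice, as described further on. Neither window holds one of the 4 motifs.
Nkd1: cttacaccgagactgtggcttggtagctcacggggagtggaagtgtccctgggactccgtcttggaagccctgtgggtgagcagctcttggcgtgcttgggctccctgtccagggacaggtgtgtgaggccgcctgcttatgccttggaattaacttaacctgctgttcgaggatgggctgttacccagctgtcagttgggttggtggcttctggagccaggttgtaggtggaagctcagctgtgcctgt
Wif1: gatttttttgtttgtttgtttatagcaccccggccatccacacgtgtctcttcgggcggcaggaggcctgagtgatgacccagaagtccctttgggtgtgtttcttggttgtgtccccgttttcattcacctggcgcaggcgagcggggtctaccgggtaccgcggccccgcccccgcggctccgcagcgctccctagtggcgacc
These matches are a description of the letters in the windows and say nothing about binding.

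The 30 libraries held between 9265804 and 30806392 counted reads, with a median of 24697064.5. Levels are given in CPM, a gene's count scaled to the depth of its library, here after TMM scaling, and the 12 colon epithelium markers, among them Epcam and Krt8, summed to between 14230 and 46870 CPM. Male vehicle library 1 stood apart, with 5862 CPM summed over 8 smooth muscle markers against at most 281.8 CPM in the other libraries and 1235 CPM over 10 mesenchyme markers, and female vehicle library 5 was the shallowest. A gene was called changed at an adjusted p below 0.05, an absolute log2 fold change above 0.4 and a mean of at least 1 FPKM (a count scaled to gene length and depth) in a compared group, in edgeR's quasi-likelihood test over all genes with Benjamini-Hochberg adjustment. Of the 10 genes, Axin2, Lgr5 and Ascl2 met the FPKM minimum in vehicle, whereas Notum, Nkd1, Wif1, Apcdd1 and Mmp7 met it through AOM/DSS libraries alone and Prox1 and Tnfrsf19 did not meet it. The mice are separate animals, but a bulk scrape cannot tell fewer cells of a type from less RNA per cell.

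To compare levels between genes per length, the authors' TPM values, which scale counts to transcript length and library depth, were used. In vehicle colon Axin2 had the highest TPM of the 10 genes, with a median of 4.31 over 10 libraries, and it was above Lgr5 in 10 of 10. Lgr5 (median 1.70 TPM) and Ascl2 (1.34 TPM) did not separate, Lgr5 being the higher in 4 of 10 libraries. Both exceeded Wif1 (0.468 TPM), Mmp7 (0.342 TPM) and Tnfrsf19 (0.314 TPM) in median, and these neighbours again overlapped. Prox1 (0.151 TPM) and Nkd1 (0.129 TPM) followed, and Apcdd1 and Notum stood lowest at 0.0534 and 0.0510 TPM. At 9 weeks Mmp7 led with a median of 8.63 TPM, although it was above Axin2 (4.43 TPM) in 6 of 10 libraries, and at 15 weeks Axin2 led again with 3.26 TPM, above Ascl2 (1.02 TPM) in 10 of 10.

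**Figure D1:**
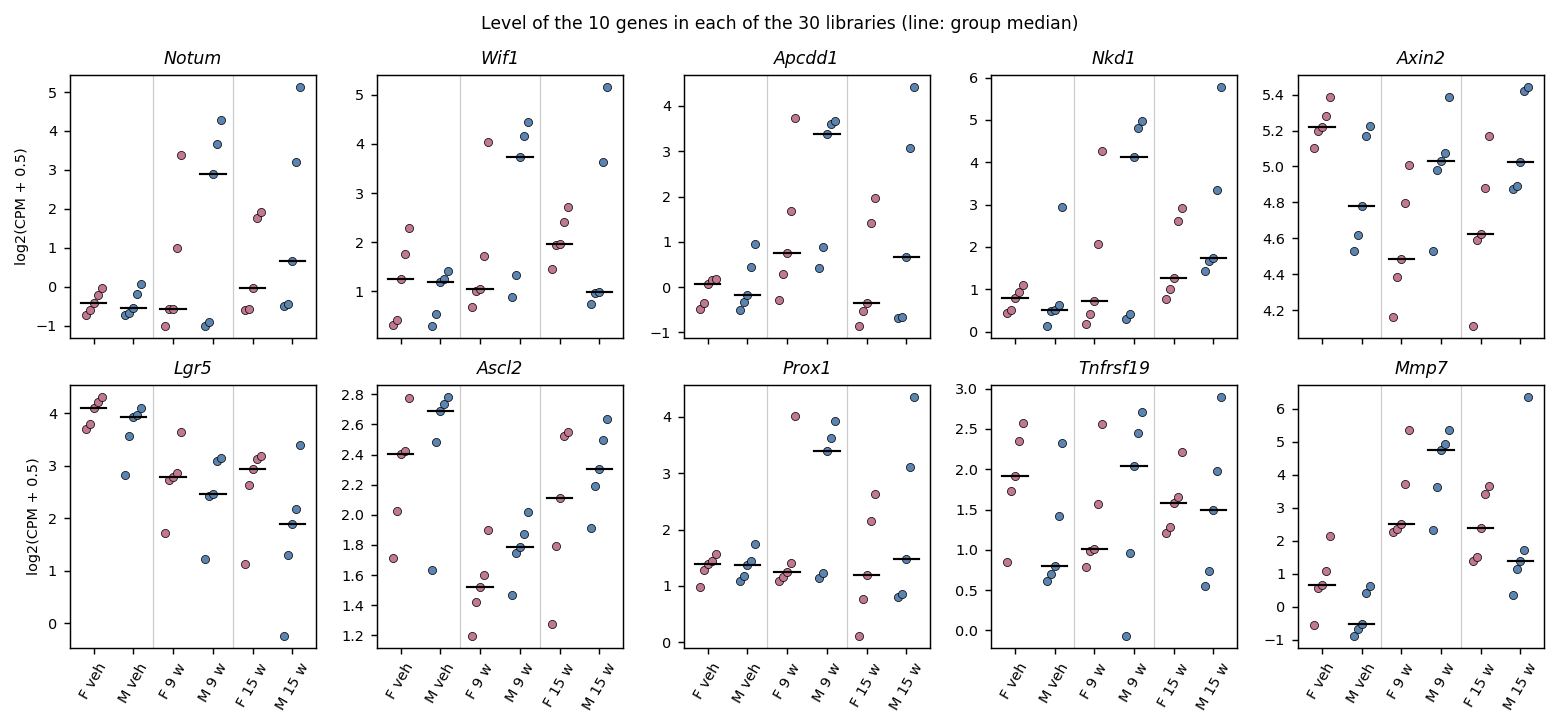
Level of each gene in each library, as log2(CPM + 0.5) on the vertical axis, for females (pink) and males (blue) of the vehicle, 9-week and 15-week groups. Each point is 1 mouse and each line a group median; the vertical scale differs between panels. At 9 weeks, Notum, Wif1, Apcdd1, Nkd1 and Prox1 lie far above vehicle in some libraries and nearer to it in the others. At 15 weeks, Wif1 in females runs from 2.26 to 6.10 CPM without such a split. Apcdd1 and Prox1 each lie below every vehicle library in 4 of 10 libraries at that time. Lgr5 lies below the vehicle median of 15.0 CPM in all 20 treated libraries.

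At 9 weeks of AOM/DSS with the sexes averaged, 5 of the 10 genes rose (Notum, Wif1, Apcdd1, Nkd1 and Mmp7) and 2 fell (Lgr5 and Ascl2). Of all genes tested, 5.51% were called higher and 2.78% lower. At 15 weeks, 3 of the 10 rose (Notum, Wif1 and Mmp7) and Lgr5 fell, against 3.46% called higher and 3.89% called lower of all genes. The median log2 fold change of the 10 genes was 1.78 at 9 weeks and 1.44 at 15 weeks, and that of all genes tested was -0.02 and -0.03. Because the 10 genes were chosen with earlier results of these data known, these shares and medians describe them and are no test of the set. The genes called higher against vehicle met the FPKM minimum through AOM/DSS libraries alone. Between 15 and 9 weeks Ascl2 alone was called by edgeR, as higher at 15 weeks, where 0.418% of all genes were called higher and 1.91% lower. With limma on the authors' TPM it was not called, and Mmp7 was, as lower.

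**Figure D2:**
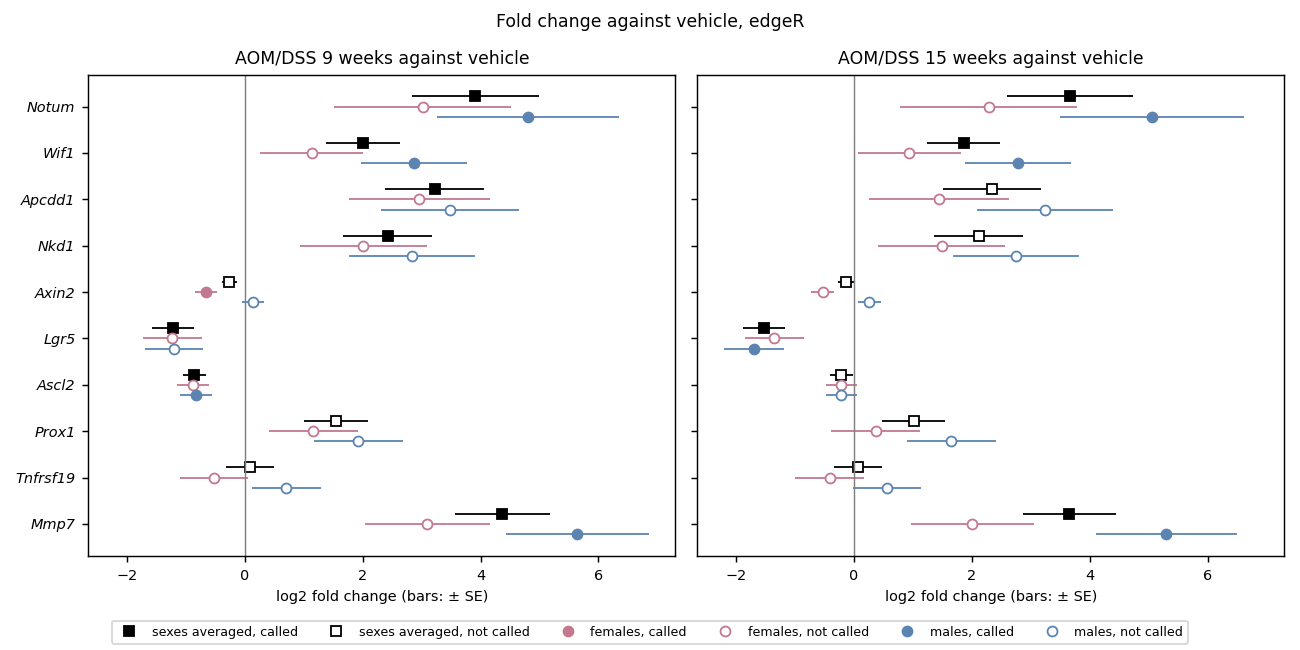
Log2 fold change of each gene against vehicle at 9 weeks (left) and 15 weeks (right), with the SE as bars, for the sexes averaged (black squares), females (pink) and males (blue). Filled symbols passed the call and open ones did not. Mmp7 and Notum lie farthest to the right and Lgr5 farthest to the left in the averaged comparisons at both times.

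Notum, the secreted Wnt deacylase, was barely detected in vehicle colon, with 1 to 13 reads per library and a lowest, median and highest level of 0.107, 0.217 and 0.557 CPM. In females at 9 weeks it stood at 0.169, 9.99, 0.176, 0 and 1.51 CPM in libraries 1 to 5, and in males at 12.2, 0, 6.95, 19.0 and 0.0347 CPM. The 2 libraries without a read allow levels of up to 0.127 and 0.131 CPM, counting error only. Of the treated libraries, 5 of 10 were above every vehicle library. The 3 of 10 with values under every vehicle library held 0, 0 and 1 read. The lowest vehicle value, 0.107 CPM, was itself 1 read, so a level below the vehicle range was not resolved. At 15 weeks Notum was at 0.479, 0.158, 2.93, 0.178 and 3.301 CPM in females and at 0.237, 8.77, 1.09, 0.207 and 34.8 CPM in males, again with 5 of 10 above vehicle. The fitted rise was 15.0-fold at 9 weeks (log2 fold change 3.91, SE 1.08, edgeR adjusted p = 0.0121) and 12.7-fold at 15 weeks (3.67, SE 1.07, adjusted p = 0.0216). Each call rested on 1 mouse: without female 9-week library 2 the change was 2.70 with an adjusted p of 0.0796, and without male 15-week library 5 it was 2.78 with an adjusted p of 0.0680. The antisense gene Notumos overlaps an exon of Notum and had 0 to 44 reads per library, the antisense neighbours of Axin2, Prox1 and Mmp7 had at most 1, 7 and 0, and the strand setting of the counting is not given in the sources used here.

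Wif1, the secreted ligand-binding inhibitor, ranged from 0.728 to 4.37 CPM in vehicle, with a median of 1.83. Its 9-week levels were 1.10, 15.8, 1.51, 1.57 and 2.80 CPM in females and 17.3, 2.01, 12.9, 21.3 and 1.35 CPM in males. At 15 weeks it stood at 3.40, 2.26, 6.10, 3.32 and 4.78 CPM in females and at 1.48, 11.8, 1.17, 1.45 and 35.4 CPM in males. At each time 4 of 10 libraries were above every vehicle library and none was below. Wif1 rose 4.01-fold at 9 weeks (log2 fold change 2.003, SE 0.625, adjusted p = 0.0269) and 3.63-fold at 15 weeks (1.86, SE 0.624, adjusted p = 0.0393). The 9-week call was lost without female 9-week library 2 (1.31) or male 9-week library 4, and it was 1.51 with an adjusted p of 0.139 with the mesenchyme score as a covariate. The 15-week call held in 12 of 20 fits that each left out 1 library. It was lost without female vehicle libraries 1, 3 or 4, male vehicle libraries 1, 2 or 5, female 15-week library 3 or male 15-week library 5, the last of which gave the lowest value, 1.19.

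Apcdd1, the membrane inhibitor, ranged from 0.207 to 1.43 CPM in vehicle, the highest value being that of male vehicle library 1. The 9-week libraries had 0.719, 12.8, 0.316, 1.19 and 2.69 CPM in females and 12.2, 1.35, 9.87, 11.7 and 0.833 CPM in males, so that 5 of 10 libraries were above vehicle. It rose 9.32-fold (log2 fold change 3.22, SE 0.837, adjusted p = 0.00800), a call that held in 20 of 20 fits with 1 library left out, with the lowest value, 2.45 (adjusted p = 0.0358), without female 9-week library 2. At 15 weeks 4 of 10 libraries were above every vehicle library and 4 of 10 below, with values from 0.0525 CPM in female library 2 to 21.1 CPM in male library 5. The 4 low libraries held only 1 to 4 reads each, against 5 to 44 in vehicle. The 15-week difference of 2.35 (SE 0.824, adjusted p = 0.0484) missed the call because the mean FPKM of 0.769 was under the minimum, and without male 15-week library 5 it was 1.67 with an adjusted p of 0.154.

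Nkd1, the Dishevelled-binding inhibitor, lay between 0.599 and 1.66 CPM in 9 vehicle libraries and at 7.22 CPM in male vehicle library 1, the library with high smooth muscle and mesenchyme markers. At 9 weeks it stood at 0.634, 18.6, 0.843, 1.15 and 3.71 CPM in females and at 27.5, 0.830, 17.0, 31.1 and 0.729 CPM in males. At 15 weeks it stood at 1.92, 1.21, 7.10, 1.498 and 5.62 CPM in females and at 2.67, 9.71, 2.21, 2.82 and 54.8 CPM in males. Of the treated libraries, 4 of 10 at 9 weeks and 2 of 10 at 15 weeks were above the whole vehicle range. Nkd1 rose 5.37-fold at 9 weeks (log2 fold change 2.42, SE 0.758, adjusted p = 0.0272), a call lost without female 9-week library 2 (1.59) or male 9-week library 4, and 3.08 without male vehicle library 1. At 15 weeks the difference of 2.12 (SE 0.754, adjusted p = 0.0506) was not called, but it was called at 2.78 (adjusted p = 0.0228) without male vehicle library 1, and also without male 15-week libraries 1, 3 or 4. Without male 15-week library 5 it fell to 1.28 (adjusted p = 0.214). With a mesenchyme score as a covariate, Nkd1 was called at both times.

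Axin2, the scaffold of the degradation complex, did not share the rise of the other inhibitors. Its levels ran from 22.6 to 41.3 CPM in vehicle (median 35.8), from 17.4 to 41.3 CPM at 9 weeks (median 29.2) and from 16.8 to 43.0 CPM at 15 weeks (median 29.1). The averaged difference was -0.26 (SE 0.133, adjusted p = 0.196) at 9 weeks and -0.13 (SE 0.133, adjusted p = 0.502) at 15 weeks, neither called. On the authors' TPM the 9-week difference had the opposite sign, 0.058 on the log2(TPM + 0.1) scale. In females at 9 weeks, Axin2 was 27.3, 31.7, 21.9, 17.4 and 20.4 CPM against 36.8, 41.3, 36.2, 38.4 and 33.9 CPM in vehicle, with no overlap. This was the only call among the 10 genes in females at 9 weeks (-0.65, SE 0.188, adjusted p = 0.0448), where 2.9% of all genes were called in either direction, and it was lost in 8 of 10 fits with 1 library left out, all but those without female vehicle library 1 or female 9-week library 2. In males Axin2 was 31.05, 22.6, 32.2, 41.3 and 33.2 CPM at 9 weeks against 22.6, 26.9, 35.5, 36.9 and 24.0 CPM in vehicle (0.14, SE 0.187, adjusted p = 0.702). The male minus female difference in response was 0.79 (SE 0.265) at 9 weeks and 0.80 (SE 0.265) at 15 weeks, with adjusted p = 0.591 and 0.469 and unadjusted p = 0.00603 and 0.00563 in the fit across all genes, so that a sex difference was not called.

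Lgr5, the stem cell R-spondin receptor, fell at both times. In vehicle it was at 13.4, 16.7, 12.5, 18.2 and 19.4 CPM in females and at 6.60, 11.4, 14.8, 15.1 and 16.7 CPM in males, the low male value again being library 1. At 9 weeks it was at 6.77, 12.01, 2.81, 6.42 and 6.13 CPM in females and at 8.33, 4.85, 5.04, 8.08 and 1.84 CPM in males. At 15 weeks it was at 7.19, 1.68, 8.23, 5.74 and 8.58 CPM in females and at 1.958, 4.04, 3.22, 0.344 and 10.0 CPM in males. At each time 6 of 10 treated libraries were below every vehicle library and none was above. Lgr5 fell by 1.21 on the log2 scale at 9 weeks (SE 0.353, adjusted p = 0.0176), to 0.431 of the vehicle level. At 15 weeks it fell by 1.52 (SE 0.357, adjusted p = 0.00670), to 0.349 of the vehicle level. Both calls held in 20 of 20 fits with 1 library left out, with values from -1.37 to -1.10 and from -1.86 to -1.37. The difference between 15 and 9 weeks was -0.31 (SE 0.353, adjusted p = 0.615).

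Ascl2, the stem cell transcription factor, was low at 9 weeks, and at 15 weeks 9 of 10 libraries lay within the vehicle range. Vehicle libraries had 6.34, 3.57, 2.78, 4.86 and 4.80 CPM in females and 2.60, 5.10, 6.18, 5.94 and 6.39 CPM in males. The levels at 9 weeks were 2.37, 3.23, 2.18, 1.79 and 2.53 CPM in females and 3.54, 2.27, 2.85, 2.95 and 3.16 CPM in males, with 5 of 10 libraries below every vehicle library. It fell by 0.854 on the log2 scale (SE 0.191, adjusted p = 0.00241), in 20 of 20 fits with 1 library left out. At 15 weeks its range was 1.92 CPM, in female library 1 and below every vehicle library, to 5.72 CPM with a median of 4.26 (difference from vehicle -0.21, SE 0.189, adjusted p = 0.450). The rise from 9 to 15 weeks of 0.65 (SE 0.190, adjusted p = 0.0465) stayed called in 4 of 20 such fits (without female 9-week library 5, female 15-week libraries 1 or 3 or male 15-week library 3), with an adjusted p of up to 0.0966. It was also lost without the filter on low counts, with the replicate block and with the mesenchyme covariate, and on log2(TPM + 0.1) the difference was -0.012, with a median of 1.03 TPM at 9 and 1.02 TPM at 15 weeks. Crypt base stem cell markers as a list of 10, which includes Lgr5, Ascl2 and Axin2, summed to a median of 743.9 CPM in vehicle, 713.4 at 9 weeks and 654.9 at 15 weeks. At the 2 times 4 and 2 of the 10 were called lower and none higher, against 2.78% and 3.89% of all genes called lower. Lgr5 and Ascl2 themselves were among the 4, and Lgr5 was among the 2.

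Prox1, the homeobox factor, kept to a narrow 1.48 to 2.85 CPM in vehicle. In 9-week colon Prox1 was at 1.86, 15.6, 1.72, 1.62 and 2.15 CPM in females and at 11.8, 1.83, 10.0, 14.7 and 1.70 CPM in males, so that 4 of 10 libraries stood far above vehicle and the others within its range. At 15 weeks 4 of 10 libraries were above every vehicle library and 4 of 10 below, from 0.578 to 19.97 CPM. The difference at 9 weeks was 1.55 (SE 0.536, adjusted p = 0.0474), not called because the mean FPKM of 0.621 was under the minimum, and it was 0.89 with an adjusted p of 0.234 without female 9-week library 2. That at 15 weeks was 1.01 (SE 0.533, adjusted p = 0.177).

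Tnfrsf19, the receptor of the tumour necrosis factor receptor family, had a median of 2.49 CPM in vehicle, 1.998 at 9 weeks and 2.41 at 15 weeks. Its ranges of 1.03 to 5.48, 0.451 to 6.02 and 0.965 to 6.95 CPM overlapped almost wholly. The differences from vehicle were 0.09 (SE 0.409, adjusted p = 0.914) and 0.08 (SE 0.410, adjusted p = 0.916). In all 4 AOM/DSS groups, the library with the most Tnfrsf19 also held the most Apcdd1 and the most Mmp7.

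Mmp7, the metalloproteinase, showed the largest fold change of the 10 genes at 9 weeks. Vehicle libraries had 0.176, 3.89, 1.63, 0.972 and 1.07 CPM in females and 0.195, 0.128, 1.05, 0.829 and 0.0373 CPM in males. At 9 weeks it stood at 4.27, 40.3, 4.64, 12.8 and 5.21 CPM in females and at 40.6, 11.97, 26.2, 30.2 and 4.48 CPM in males. Every 9-week library was thus above every vehicle library, the only one of the 10 genes for which the 10 treated and 10 vehicle libraries did not overlap, against 1.09% of all genes in either direction. Mmp7 rose 20.6-fold (log2 fold change 4.37, SE 0.805, adjusted p = 0.000340), and leaving out 1 library at a time gave 3.87 to 4.73. At 15 weeks it was at 2.11, 2.36, 12.1, 4.71 and 10.2 CPM in females and at 0.771, 2.82, 2.13, 1.72 and 81.9 CPM in males, and 4 of 10 libraries were above vehicle. The 15-week rise was 12.6-fold (3.66, SE 0.790, adjusted p = 0.00362), and 2.04 on the log2 scale (adjusted p = 0.0243) without male library 5. The difference between 15 and 9 weeks was -0.71 (SE 0.673, adjusted p = 0.531), and it was called at -2.32 (adjusted p = 0.0171) without male 15-week library 5 and at -2.08 (adjusted p = 0.0206) by limma on log2(TPM + 0.1).

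Beside Mmp7, the list of 8 Paneth cell genes, of which it is a member, summed to a median of 72.5 CPM in vehicle, 151.1 at 9 weeks and 261.0 at 15 weeks, with ranges of 8.654 to 554.5, 55.63 to 517.7 and 68.32 to 1462 CPM. By sex, the medians in vehicle, at 9 and at 15 weeks were 156.8, 81.22 and 152.6 CPM in females and 24.11, 322.2 and 774.9 CPM in males. At each time 4 of its 6 tested genes were called higher and none lower, and Defa21 and Defa22 were at 0 in all vehicle libraries. Of 7 neutrophil markers, 5 were called higher at 9 weeks and 2 at 15 weeks (summed medians of 0.670, 25.65 and 2.31 CPM in vehicle, at 9 and at 15 weeks). Macrophage markers, T cell markers and B cell markers numbered 7, 7 and 6, and 3, 2 and 0 of them were called higher at 9 weeks and 1, 1 and 0 at 15 weeks. None of the 10 mesenchyme and 8 smooth muscle markers was called at 9 weeks, and 4 and 7 of them were lower at 15 weeks. The smooth muscle list summed to medians of 127.1 CPM in vehicle and 81.62 CPM at 15 weeks, and male vehicle library 1 alone held 5862 CPM. The part of that library in these calls was not tested. Of all genes tested, 5.51% were called higher and 2.78% lower at 9 weeks, and 3.46% and 3.89% at 15 weeks. Of 12 epithelium markers 1 and 2 were higher, and none of 10 proliferation markers was called at either time. Of 6 distal colon genes, among them Hoxb13, 3 were lower at 15 weeks with a list median of -4.19 in log2 fold change. That median counts each gene alike, whatever its level, and Hoxd12 was at 0 in all 15-week libraries. The distal list summed to a median of 269.9 CPM in vehicle and 128.5 CPM at 15 weeks, a smaller fall, and the ranges of the sums overlapped. None of 4 tested proximal colon genes was called. The part of these cell types, and of the site along the colon, in the values of the 10 genes was not tested.

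The 2 sexes were also compared gene by gene. In males at 9 weeks, Notum (4.81, SE 1.55, adjusted p = 0.0457), Wif1 (2.87, SE 0.902, adjusted p = 0.0412), Mmp7 (5.64, SE 1.21, adjusted p = 0.00373) and Ascl2 (-0.82, SE 0.268, adjusted p = 0.0479) were called, against 7.31% of all genes. In males at 15 weeks, Notum (5.05, SE 1.56, adjusted p = 0.0306), Wif1 (2.78, SE 0.900, adjusted p = 0.0380), Mmp7 (5.30, SE 1.2, adjusted p = 0.00607) and Lgr5 (-1.69, SE 0.508, adjusted p = 0.0269) were called, against 8.92%. In females none of the 10 was called by edgeR at 15 weeks, where 0.0984% of all genes were, although 2 had an unadjusted p below 0.05. Of all 16261 genes tested, 1776 had such a p there. Single libraries decided most of the male calls. At 9 weeks those of Notum and Wif1 held in 2 of 10 fits with 1 library left out (without male 9-week libraries 2 or 5), that of Ascl2 in 1 of 10 (without male vehicle library 1) and that of Mmp7 in 10 of 10. At 15 weeks Notum was lost without male vehicle libraries 1, 3 or 5 or male 15-week library 5, Lgr5 without male vehicle library 5 or male 15-week libraries 1 or 3, and Mmp7 without male 15-week library 5, when its value was 2.065 instead of 5.30. Wif1 held at 15 weeks in 4 of 10 fits, those without male vehicle library 4 or male 15-week libraries 1, 3 or 4. In a fit on the compared libraries alone, none of the 10 was called in males at 15 weeks.

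Males and females did not differ in a called way in any of the 10 genes. This held in vehicle (0.178% of all genes called), at 9 weeks (0.0492%) and at 15 weeks (0.184%), with 0, 1 and 2 of the 10 at an unadjusted p below 0.05. Of all 16261 genes tested, 3035, 630 and 2009 had such a p in these 3 comparisons. The difference between the male and the female response was called for 0.0% of all genes at each time, and the larger male values for Notum (difference 1.79, SE 2.08, at 9 weeks and 2.77, SE 2.10, at 15 weeks) and Mmp7 (2.54, SE 1.51, and 3.29, SE 1.52) were not called. For Mmp7 at 15 weeks the unadjusted p was 0.0388 and the adjusted p 0.622 in edgeR's fit across all genes. Counted by library, the 5 treated females did not overlap the 5 vehicle females at 9 weeks in Mmp7 (higher), Lgr5 and Axin2 (both lower), where 4.18% of all genes did not overlap in either direction. In males at 9 weeks Mmp7 alone did not overlap, against 10.3% of all genes. At 15 weeks Lgr5 alone did not overlap in females (2.21% of all genes), none of the 10 did in males (7.09%), and none did with the sexes together (0.24%).

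**Figure D3:**
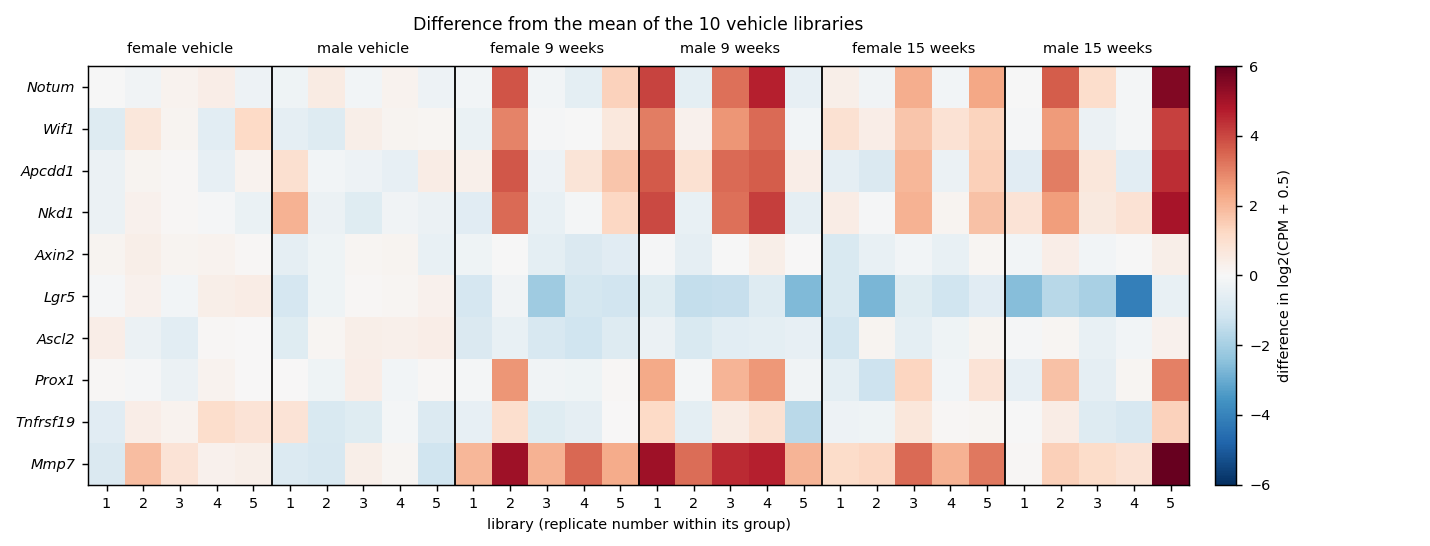
Difference of each gene from the mean of the 10 vehicle libraries, in log2(CPM + 0.5), for each of the 30 libraries in columns and the 10 genes in lines, red for higher and blue for lower. Libraries are numbered within their group. Notum, Wif1, Apcdd1, Nkd1, Prox1 and Mmp7 are red together in female 9-week library 2, male 9-week libraries 1, 3 and 4 and male 15-week library 5, while Lgr5 is blue in most treated libraries.

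The rise in the inhibitors was not spread evenly over the treated mice but gathered in some of them. Female 9-week library 2 held the highest value of its group for all 10 genes, male 15-week library 5 for 9 of 10, female 15-week library 3 for 6 of 10 and male 9-week library 1 for 5 of 10, whereas no vehicle library was highest for more than 3 of 10. On the TPM scale, female 15-week library 5 took the place of library 3, with 7 of 10, and male vehicle library 1 held the highest value for 4 of 10. In female 9-week library 2 and male 9-week library 3, 6 of the 10 genes were above every vehicle library, in male 9-week libraries 1 and 4 it was 7 of 10, in male 15-week library 5 it was 8 of 10 and in male 15-week library 2 it was 6 of 10. In these 6 libraries 9.67%, 13.0%, 13.2%, 13.0%, 20.8% and 8.12% of all genes tested were above every vehicle library. Female 15-week libraries 3 and 5 came next, each with 5 of the 10 above (Notum, Wif1, Prox1, Apcdd1 and Mmp7), against 11.9% and 7.59% of all genes. In contrast, female 9-week libraries 1, 3 and 4 and male 9-week libraries 2 and 5 had Mmp7 alone above vehicle. Of all libraries, male 15-week library 5 had the highest Notum (34.8 CPM), Wif1 (35.4 CPM), Apcdd1 (21.1 CPM), Nkd1 (54.8 CPM), Prox1 (19.97 CPM), Tnfrsf19 (6.95 CPM) and Mmp7 (81.9 CPM). Its marker sums were 30020 CPM for epithelium, 203.8 for mesenchyme, 129.1 for macrophages, 19.28 for neutrophils, 1179 for Paneth cell genes and 705.5 for proliferation, of which the mesenchyme, macrophage and neutrophil values were the highest of their group. Female 9-week library 2 had 319.9 CPM for mesenchyme and 162.4 for macrophages, also the highest of its group, and 25.96 for neutrophils. Male 9-week library 1 had the highest mesenchyme and macrophage sums of its group (377.5 and 147.0 CPM) and 41.64 CPM for neutrophils. Female 15-week library 5 had the highest mesenchyme, macrophage and neutrophil sums of its group (102.5, 78.32 and 7.437 CPM). The other high libraries did not stand out in the mesenchyme, macrophage and neutrophil sums. Female 15-week library 3 had 92.25, 52.25 and 4.374 CPM for these 3 lists. Male 9-week library 3 held the median of its group for mesenchyme, macrophages and neutrophils (223.5, 129.2 and 36.83 CPM), male 9-week library 4 had 165.1 and 118.5 CPM for mesenchyme and macrophages and the lowest neutrophil sum of its group (7.43 CPM), and male 15-week library 2 had 80.55 CPM for mesenchyme, the lowest macrophage sum of its group (52.92 CPM) and 3.14 CPM for neutrophils. For proliferation, male 9-week library 4 (1036 CPM) and female 15-week library 3 (988.1 CPM) held the highest sums of their groups. Male 9-week library 1 (610.6 CPM) and female 15-week library 5 (391.5 CPM) held the lowest. Female 9-week library 2 (715.5 CPM), male 9-week library 3 (706.9 CPM) and male 15-week libraries 2 (690.6 CPM) and 5 lay between. Whether these cell types or proliferation had a part in the shared rise was not tested.

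**Figure D4:**
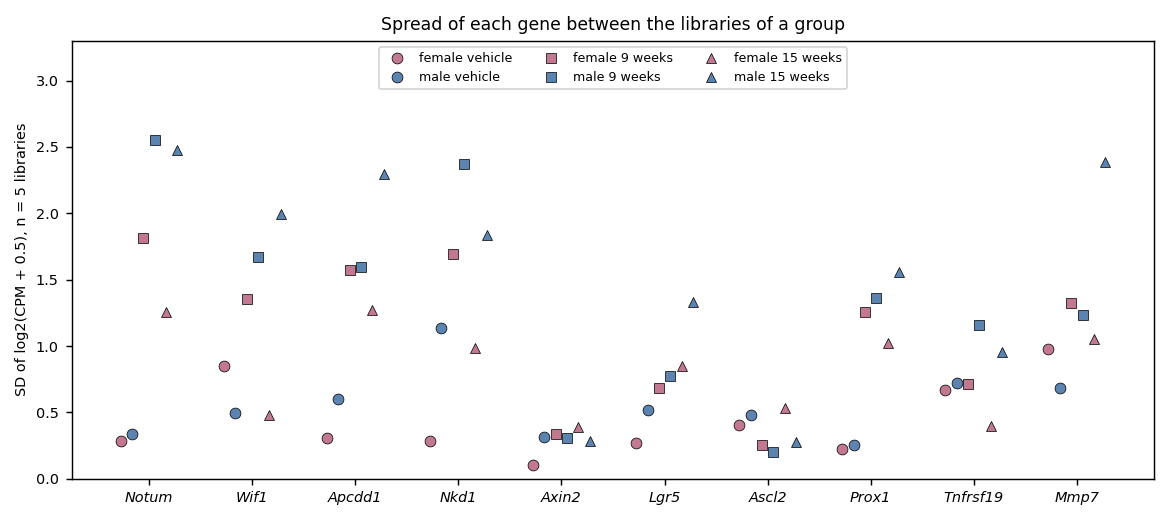
SD of log2(CPM + 0.5) between the 5 libraries of a group (vertical axis) for each gene, for vehicle (circles), 9 weeks (squares) and 15 weeks (triangles) in females (pink) and males (blue). Notum, Nkd1, Apcdd1 and Mmp7 reach SDs above 2 in at least 1 male AOM/DSS group, while Axin2 and Ascl2 reach at most 0.391 and 0.535 in any of the 6 groups.

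Between the 5 mice of a group, the SD of log2(CPM + 0.5) separated the genes in the same way. For Notum it was 0.285 and 0.340 in female and male vehicle mice, 1.81 and 2.55 at 9 weeks and 1.25 and 2.48 at 15 weeks. The treated values stood at the 99.7th, 99.99th, 99.3rd and 99.9th percentile of all genes tested, and the vehicle values at the 58.1st and 64.9th. Vehicle levels of Notum, 0.107 to 0.557 CPM, were near the added 0.5, which narrows the vehicle SD. Nkd1 (SD 1.69 and 2.37) and Apcdd1 (1.57 and 1.60) behaved alike at 9 weeks, all above the 99th percentile. Axin2 had SDs of 0.336 and 0.308 at 9 weeks and 0.391 and 0.281 at 15 weeks, between the 45.7th and the 73.3rd percentile, and Ascl2 had 0.258 and 0.201 at 9 weeks. Lgr5 varied more in treated than in vehicle mice, with 0.683 and 0.774 at 9 weeks and 0.853 and 1.33 at 15 weeks against 0.268 and 0.515, a difference in spread that was not tested. The median SD over the 10 genes was 0.297 and 0.504 in vehicle, 1.29 and 1.30 at 9 weeks and 0.918 and 1.70 at 15 weeks, females first.

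Over the 20 AOM/DSS libraries with group means removed, the 10 pairs among Notum, Nkd1, Wif1, Prox1 and Apcdd1 had Pearson correlations of 0.929 to 0.972 and Spearman correlations of 0.880 to 0.971. These describe the libraries, which fall into low and high ones, share depth and composition, and carry no test. Lgr5, although lower in treated colon, followed the same order between mice, with a Pearson correlation of 0.820 with Apcdd1 and 0.767 with Notum. Axin2 was nearest to Prox1 (0.725) and Ascl2 (0.721), and the correlation of Lgr5 with Ascl2 was 0.093 on this scale and 0.639 on TPM. By Pearson correlation, Nkd1 ranked first for Notum among 16260 other genes, Apcdd1 at rank 3, Wif1 at rank 4 and Prox1 at rank 7. The 10 genes were chosen with earlier results of these data known, so these ranks are not independent of that choice. Among the genes outside the 10 that were most alike were Spock2 (0.964), Dkk2 (0.959) and Tex15 (0.950) for Notum, Dkk2 (0.964), Tex15 (0.963) and Slc38a4 (0.962) for Nkd1, Lef1 (0.967) and Slc30a2 (0.961) for Wif1, and Lyz1 (0.960) and Spock2 (0.957) for Prox1. For Apcdd1 they included Mt4 (0.952) and Dkk2 (0.951), for Tnfrsf19 Clstn2 (0.936), Tex15 (0.921) and Dkk2 (0.914), and for Mmp7 Adcy8 (0.955), Gm11978 (0.936) and Vash2 (0.934). For Lgr5 they were Faim2 (0.880), Sprr2h (0.860) and Bex1 (0.857), for Axin2 5730457N03Rik (0.800), Mgp (0.774) and Pdlim4 (0.766), and for Ascl2 Fbln2 (0.773), Gm10335 (0.770) and Gpnmb (0.767).

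In the wider Wnt pathway, most tested genes were not called at either time. The share called lower was above that of all genes at both times, and the share called higher was below it. These differences rested on few genes and were not tested. The genes listed here were chosen with earlier results of these data known, and those described above were left out. The shares therefore do not describe the whole pathway. A list of 105 other ligands, receptors, inhibitors, cytoplasmic and nuclear components and targets had 77 tested genes, of which 3 (3.90%) were called higher and 6 (7.79%) lower at 9 weeks, against 5.51% and 2.78% of all genes (list median -0.08 in log2 fold change). At 15 weeks 1 (1.30%) was called higher and 5 (6.49%) lower, against 3.46% and 3.89% of all genes (list median -0.19). Plaur, the urokinase receptor, rose by 1.92 at 9 weeks (SE 0.255, adjusted p = 5.47e-06) and by 1.05 at 15 weeks (SE 0.251, adjusted p = 0.00757), and was lower at 15 than at 9 weeks (-0.87, adjusted p = 0.0421), the only call of the list between these times. The other called rises at 9 weeks were Ptpro (0.81, SE 0.199), a receptor tyrosine phosphatase, and Ccnd1 (0.52, SE 0.161), the cell cycle regulator cyclin D1. The largest called falls at 9 weeks were Bambi (-0.74), a decoy receptor of the TGF-beta family, Porcn (-0.60), which adds the lipid to Wnt ligands, the Frizzled receptor Fzd7 (-0.56) and the stem cell marker Smoc2 (-0.54). At 15 weeks they were Smoc2 (-0.75), Porcn (-0.62), Fzd7 (-0.47) and Kremen1 (-0.45), a receptor for Dickkopf proteins. By role, 0 of 13 tested cytoplasmic and 0 of 12 tested nuclear components were called at either time, and 2 of 17 receptors were called lower at each.

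Of the 7 calls at 9 weeks, 2 were kept by limma on the authors' TPM as log2(TPM + 0.1), those of Apcdd1 and Mmp7, and of the 4 calls at 15 weeks 1 was kept, that of Lgr5. On log2(TPM + 1), limma called 3 of the 10 genes at 9 weeks (Lgr5, Apcdd1 and Mmp7) and 1 at 15 weeks (Lgr5). In every library 39.2% to 58.1% of TPM went to mt-Nd4l. The cause of the lost calls was not tested. Without male vehicle library 1 and female vehicle library 5, a choice made after the data were seen, 7 of the 10 genes were called at 9 weeks and 3 at 15 weeks, namely Nkd1, Lgr5 and Mmp7.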

How the data were processed

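Poly(A) RNA of 30 colon scrapes was sequenced with stranded Illumina TruSeq libraries. Per the labels and the methods, the authors trimmed reads with Trim Galore, aligned them to GRCm38 (mm10) with STAR, deposited raw counts per gene from featureCounts in 1 table, and deposited FPKM and TPM per library from StringTie. Versions other than bcl2fastq 2.20.0.422 and the strand setting of counting are not given in the sources used here.

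From the deposited counts, edgeR 4.0.16 (R 4.3.3) was fitted to all 30 libraries with 6 groups, after filterByExpr (16261 genes kept) and TMM scaling (factors 0.832 to 1.10), with p-values adjusted over all genes. The common biological coefficient of variation was 0.319. The script was tested on simulated data with 200 changed genes. SE is the log2 fold change divided by the square root of F. Spread used log2(CPM + 0.5). The deposited FPKM values gave the minimum of 1 in a call, and the deposited TPM values gave levels between genes and an alternative with limma 3.58.1. DESeq2 1.42.0 was another. Each library was left out in turn.

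All 10 genes are named. From the Wnt list, up to 4 called genes per direction are named by size of change, and for each of the 10 the 3 genes most alike by Pearson correlation, of which some are not reported here. The 10 genes, the 12 marker lists and the Wnt list were chosen with earlier results of these data known. Groups came from the sample labels. Replicate numbers are not said to pair mice, and no pairing was used. Of 75 pairs of libraries with the same number in different groups, 12 had a correlation of deviations over 0.1 (median -0.026, from -0.581 to 0.467). These values cannot settle whether mice were paired.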

Additional observations from a re-analysis of the deposited data

Results flagged for a closer look

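In each of 60 sets of 5 libraries (10 genes in 6 groups), the highest or lowest library was compared with the others, and 5 stood apart, its gap to the nearest library being more than 0.71 of the whole range (Dixon's limit for 5 values, which chance alone passes in about 1 of 20 sets). In vehicle males, Nkd1 was 7.22 CPM in library 1 against a median of 0.933 CPM, and Ascl2 was lowest in the same library, at 2.60 against 5.94 CPM. This is the library with 5862 CPM of smooth muscle markers. In females at 9 weeks, Prox1 was 15.6 CPM in library 2 against a median of 1.86 CPM. In females at 15 weeks, Lgr5 was lowest in library 2, at 1.68 against 7.19 CPM. In males at 15 weeks, Mmp7 was 81.9 CPM in library 5 against a median of 2.13 CPM.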

How the results depend on the processing

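Of 2261 alternative values for 97 results, 1953 kept their direction and side of the threshold or stayed within 1.5 times, 153 lost a call, 35 gained one, 55 changed sign and 65 counts moved by more than 1.5 times. With limma on log2(TPM + 0.1), on log2(TPM + 1) and on log2(TPM + 0.1) without a filter, the number of the 10 genes called was 2, 3 and 1 at 9 weeks, 1, 1 and 1 at 15 weeks, 1, 1 and 1 in males at each time, and 0, 0 and 0 in females at 9 weeks. Between the times these 3 fits called Mmp7 and not Ascl2. With the replicate block, which has no basis in the labels, the count was 2 at 15 weeks, 0 between the times, 0 in females at 9 weeks and 2 in males at 15 weeks. The 9-week call of Nkd1 was lost under this block (2.45, adjusted p = 0.05003) and the 15-week calls of Notum (3.05, adjusted p = 0.0919) and Wif1 (1.68, adjusted p = 0.0779) as well. Without the filter on low counts it was 0 between the times, 0 in females and 2 in males at 9 weeks, and with the mesenchyme covariate 0 between the times and 0 in females at 9 weeks. DESeq2 called 3 in females at 9 weeks, compared libraries alone gave 0 in males at 15 weeks, and without male vehicle library 1 and female vehicle library 5 the count was 0 in females at 9 weeks and 2 in males at 15 weeks. Leaving out single libraries gave 4 to 7 calls at 9 weeks, 2 to 5 at 15 weeks, 0 to 1 between the times, 0 to 1 in females and 1 to 4 in males at 9 weeks, and 1 to 5 in males at 15 weeks. In the Wnt list DESeq2 called 10 genes at 15 weeks and 2 between the times, and no filter 0 between the times; the median SD of the 10 genes and the number highest in 1 library did not move past their limits on TPM or unscaled CPM. The cause of these moves was not tested.

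Signs changed in differences that were not called, except for Ascl2 between the times, which was -0.012 on log2(TPM + 0.1) with and without the filter. On log2(TPM + 0.1) with and without the filter and on log2(TPM + 1), Axin2 was 0.058 and 0.053 at 9 weeks, -0.49 and -0.36 between the times and -0.23 and -0.17 in males at 15 weeks, and Tnfrsf19 was -0.15 and -0.024 at 15 weeks, and -0.024 in males on the first scale. With the mesenchyme covariate, Tnfrsf19 was -0.17 at 9 weeks, and the differences between 15 and 9 weeks were 0.66 for Notum, 0.72 for Nkd1, 0.45 for Wif1, 0.26 for Prox1, 0.14 for Apcdd1, 0.55 for Tnfrsf19 and 0.12 for Mmp7. With single libraries left out, the differences between the times ran from -1.12 to 0.97 for Notum, -1.15 to 0.54 for Nkd1, -0.81 to 0.55 for Wif1, -1.02 to 0.13 for Prox1 and -0.30 to 0.25 for Tnfrsf19. Against vehicle, Tnfrsf19 ran from -0.17 to 0.36 at 9 weeks, -0.20 to 0.35 at 15 weeks and -0.010 to 1.10 in males at 15 weeks, Wif1 from -0.26 to 1.52 and Prox1 from -0.16 to 1.38 in females at 9 weeks, and Prox1 from -0.11 to 0.64 in females at 15 weeks. The shallowest library held 9265804 reads, and Notum rested on 1 to 13 reads per vehicle library.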
